A study of Mus musculus with 16 samples.

Results

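The mitral and tufted cell genes described here are Tbx21, Eomes, Lhx1, Cdhr1, Slc17a6 and Reln, chosen by name as markers of the projection neurons of the olfactory bulb, and each was read through the probe set that the platform annotation gives to it. All 6 members had 1 probe set with a single gene symbol, among 19938 genes measured. RNA of 16 samples was hybridised to 1 one-colour Affymetrix array each. The mice were 2.5 months old, of mixed C57BL/6 and CD1 background. There were 3 samples from the core of the olfactory bulb (OB) of Brg1 conditional knockout (cKO) mice and 5 from OB of control mice. A further 3 samples came from the subependymal zone (SEZ) of cKO mice and 5 from SEZ of control mice. The cKO genotype is labelled GlastCreERT2/Brg1fl/fl, with both copies of Brg1 floxed. The control genotype is labelled GlastCreERT2/Brg1fl/+, with 1 floxed copy, so these controls carry the recombinase and can lose 1 copy as well. SEZ control replicate 5 is the exception in the labels, with the genotype Brg1+/+. Smarca4 encodes Brg1, the motor subunit of SWI/SNF, a complex that moves nucleosomes. CreERT2 is a recombinase that needs tamoxifen, and here it is driven from the locus of Glast, whose gene Slc1a3 is expressed by astrocytes and by the adult neural stem cells of the SEZ. No treatment is listed in the labels, and the time of tamoxifen is not stated in the sources used here. They call the samples biological replicates, without saying that each was 1 animal.

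Mitral and tufted cells are the glutamatergic output neurons of the olfactory bulb. They receive input from olfactory sensory neurons in the glomeruli and send axons to the olfactory cortex, and they are born in the embryo. The neurons that arrive in the adult bulb from the SEZ are mostly GABAergic granule and periglomerular interneurons, and these descend from cells in which Glast is active. How many mitral and tufted cells the samples from the bulb's core held was not measured. If deletion took place in the adult, these cells lie outside the lineage it reaches, but its time is not stated in the sources. On that premise, the cKO comparison asks how their genes stood in a bulb that receives mutant newborn neurons. Background on the members follows their roles: Tbx21 (T-bet) and Eomes (Tbr2) are T-box transcription factors, Lhx1 is a LIM-homeodomain transcription factor, Cdhr1 is a cadherin-related membrane protein, Slc17a6 (VGLUT2) loads glutamate into synaptic vesicles, and Reln is a secreted glycoprotein that guides neuronal positioning.

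The promoters of the 4 members that separated OB from SEZ most widely are printed here, since their levels moved together between the tissues. Each is the stretch of 250 bases before the gene's start in RefSeq's table for the mouse assembly GRCm38.p6, 5′ to 3′ on the strand of the gene. Capitals mark matches, on either strand, to 4 short motifs: the T-box core GGTGTG, the CCAAT box CCAAT, the GC box GGGCGG and the LIM homeobox core TAATTA.
Tbx21, chr11:97115332-97115581, minus strand: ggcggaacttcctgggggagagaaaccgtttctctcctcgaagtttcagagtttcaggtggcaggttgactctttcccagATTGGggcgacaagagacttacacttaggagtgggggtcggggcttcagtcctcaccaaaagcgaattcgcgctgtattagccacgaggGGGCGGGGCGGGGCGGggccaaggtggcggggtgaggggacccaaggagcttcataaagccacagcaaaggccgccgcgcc
Eomes, chr9:118477939-118478188, plus strand: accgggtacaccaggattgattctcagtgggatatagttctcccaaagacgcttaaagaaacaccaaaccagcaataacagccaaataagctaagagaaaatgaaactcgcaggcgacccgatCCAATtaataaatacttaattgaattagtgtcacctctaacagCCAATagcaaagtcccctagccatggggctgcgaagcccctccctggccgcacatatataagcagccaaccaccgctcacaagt
Cdhr1, chr14:37098348-37098597, minus strand: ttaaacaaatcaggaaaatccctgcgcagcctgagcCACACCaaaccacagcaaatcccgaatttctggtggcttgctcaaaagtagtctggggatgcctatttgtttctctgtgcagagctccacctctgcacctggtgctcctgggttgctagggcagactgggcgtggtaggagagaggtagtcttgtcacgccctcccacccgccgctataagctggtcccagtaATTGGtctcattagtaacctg
Slc17a6, chr7:51621580-51621829, plus strand: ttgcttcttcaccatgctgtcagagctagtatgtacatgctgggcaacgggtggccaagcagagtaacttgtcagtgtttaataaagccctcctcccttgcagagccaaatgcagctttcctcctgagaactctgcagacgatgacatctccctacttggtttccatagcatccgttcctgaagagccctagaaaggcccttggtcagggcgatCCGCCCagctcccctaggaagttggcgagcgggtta
The CCAAT box was found in 4 of the 6 members (Tbx21, Eomes, Lhx1 and Cdhr1) and in 33.8% of 32851 promoter windows of the same length. The GC box was found in 3 of 6 (Tbx21, Slc17a6 and Reln) and in 32.7% of windows, with 3 matches in Tbx21 that overlap one another. The T-box core was found in Cdhr1 alone among the 6 and in 16.3% of windows. TAATTA was in 0 of 6 and in 4.8% of windows. These matches describe letters in the windows and were not tied to binding by any measurement here.

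Values are log2 expression, so a difference of 1 is a 2-fold change, and differences are given with a standard error (SE) from limma, a linear model fitted to all genes with variances shared across genes. A gene was called when its p-value, adjusted by Benjamini and Hochberg over 19938 genes, was under 0.05. Array medians lay between 7.45 and 7.65. Smarca4 itself was at 11.02 ± 0.06 in OB cKO and 11.01 ± 0.04 in OB control samples, and at 10.70 ± 0.08 in SEZ cKO and 10.71 ± 0.04 in SEZ control samples (SD, n = 3 and 5). Cells with and without recombination were pooled in the tissue and the probe set is not split by exon, so Smarca4 gives no check of the deletion. Slc1a3 was at 8.85 in OB and 8.16 in SEZ of cKO replicate 3, while the other 14 samples lay between 11.16 and 12.27. SEZ control replicates 2 and 4 stood apart in genes of cortical excitatory neurons, with Slc17a7 at 10.58 and 11.06 while their fellow SEZ controls lay between 8.44 and 8.98. As a check on the tissue labels, 8 of 8 striatal projection neuron genes and 5 of 5 oligodendrocyte genes were lower in OB than in SEZ of controls, where 14.9% of all genes were. Of 11 granule and periglomerular genes, 7 were higher, against 12.6% of all genes, and 2 were lower. Of 5 ependymal genes, 4 were called lower and 1 higher in OB, and of 12 neuroblast genes 10 were higher and 1 lower. Striatal projection neurons are not cells of the SEZ niche, so OB minus SEZ is not a contrast of bulb and niche alone. How much striatum the SEZ samples held was not measured. Some differences below are also given without the samples that stood apart, and values given only with them may depend on them.

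In OB, 0 of the 6 members passed the test between cKO and control mice, and their values overlapped for each gene. The share of all genes whose values overlapped was not counted, so the overlap only describes the members. Over all genes 0.0451% were called in this comparison, 9 genes that were all lower in cKO, so 0 of 6 is also what this background rate would give. The members' median difference was 0.08 on the log2 scale and that of all genes was -0.005. In bulk tissue, fewer cells of a type and less RNA per cell cannot be told apart.

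Tbx21, which in the bulb marks the projection neurons, was at 9.74, 9.90 and 9.36 in OB cKO samples and at 9.50, 9.86, 9.14, 9.74 and 9.64 in OB controls. One cKO sample was the highest of the 8, the other 2 lay inside the control range, and the groups overlapped. The difference was 0.09 (SE 0.20, 95% interval -0.32 to 0.50). Eomes, a T-box factor of the same neurons, was at 10.87, 10.49 and 10.54 in OB cKO samples and at 10.62, 10.65, 10.71, 10.31 and 10.15 in OB controls. One cKO sample was the highest of the 8 and the other 2 lay inside the control range. The difference was 0.15 (SE 0.18, -0.23 to 0.52). Lhx1, a LIM-homeodomain factor of mitral cells, was at 6.89, 6.98 and 6.80 in OB cKO samples and at 6.76, 6.75, 7.06, 6.88 and 6.67 in OB controls. The cKO samples lay inside the control range. The difference was 0.07 (SE 0.09, -0.12 to 0.26).

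Cdhr1, the cadherin-related gene, was at 11.81, 12.02 and 11.47 in OB cKO samples and at 11.86, 11.92, 11.76, 11.59 and 11.88 in OB controls. The highest and the lowest value were both in cKO samples. The difference was -0.03 (SE 0.46, -1.02 to 0.95) in the fit of all arrays, which shares 1 spread per gene between the tissues, and Cdhr1 varied more in SEZ (SD 1.09 in cKO and 0.99 in control samples) than in OB (SD 0.28 in cKO and 0.13 in control samples). From the OB arrays alone the interval ran from -0.31 to 0.24. Slc17a6, the vesicular glutamate transporter, was at 8.14, 8.20 and 8.21 in OB cKO samples and at 8.47, 8.39, 8.06, 7.74 and 7.73 in OB controls. The 3 cKO samples clustered tightly in the middle of a wider control range. The difference was 0.11 (SE 0.15, -0.21 to 0.42). Reln, the extracellular signal, was at 11.31, 11.89 and 11.42 in OB cKO samples and at 11.36, 12.07, 11.00, 11.80 and 11.57 in OB controls. Its controls spread over 1.07 on the log2 scale and held every cKO value. The difference was -0.02 (SE 0.21, -0.47 to 0.43).

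**Figure D1:**
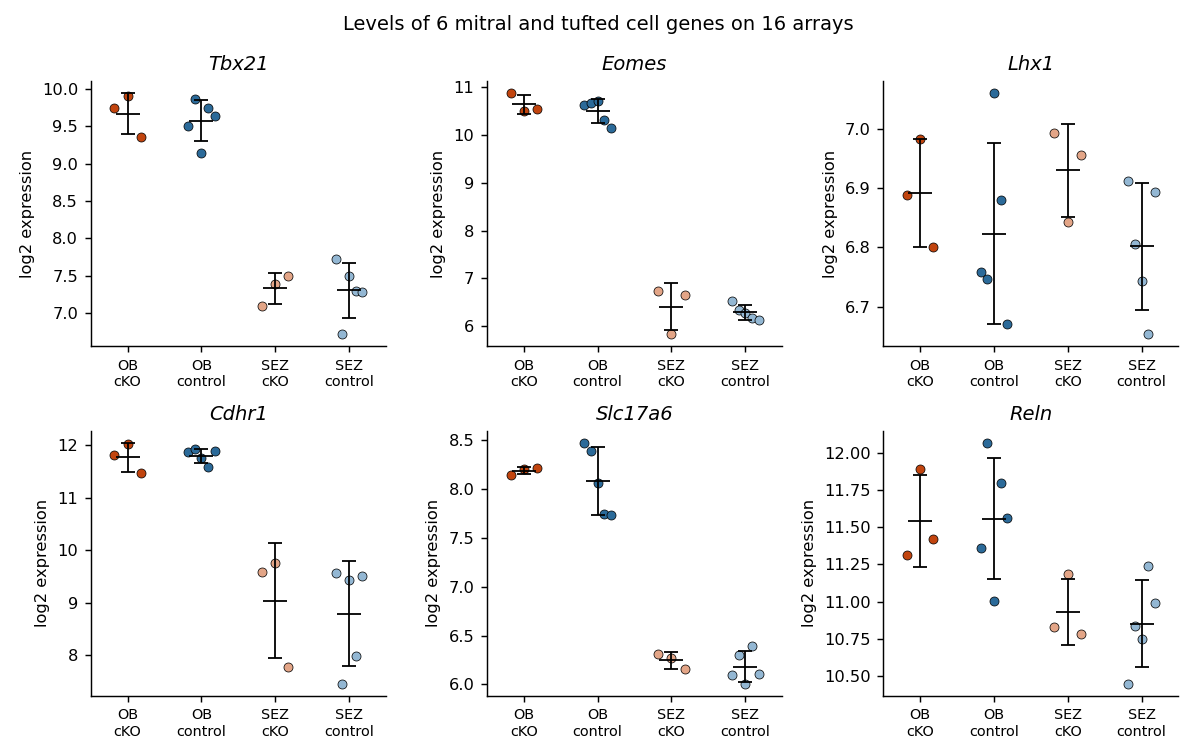
Log2 expression of the 6 members on each of 16 arrays (points), with the mean and SD of each group (bars), for OB cKO, OB control, SEZ cKO and SEZ control samples. Within a tissue, cKO and control points overlap for every member, while Tbx21, Eomes, Cdhr1 and Slc17a6 lie higher in every OB sample than in any SEZ sample. The shares of all genes with such overlap or separation were not counted. Vertical axes differ between panels and do not start at 0.

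The unadjusted p-values of the 6 members in OB were 0.430 or higher by limma, so 0 members were under 0.05 before adjustment, and each adjusted p rounded to 1.00. Over all genes, 700 had an unadjusted p under 0.05. A missed threshold does not show equal levels, and the intervals state what remained possible: apart from that of Cdhr1, they lay between -0.47 and 0.52. In the same samples 12 of 12 neuroblast genes had a lower mean in OB cKO, and 5 were called lower, against 0.0451% of all genes. The 5 called included Prokr2, a receptor that guides migrating neuroblasts, at -1.92 (adjusted p = 0.000629 by limma), and Cd24a, a neuroblast surface protein, at -1.50 (adjusted p = 0.00525 by limma). The neuroblast list was made with this result known, and the difference between the lists was not tested.

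In SEZ, too, 0 of the 6 members passed the test between cKO and control samples, and 0% of all genes did (0 members and 492 genes had an unadjusted p under 0.05 by limma). Eomes was at 6.75, 5.84 and 6.65 in SEZ cKO samples and at 6.52, 6.34, 6.28, 6.18 and 6.14 in SEZ controls. One cKO sample was below and the other 2 above every control. The lower quartiles of the arrays lay between 5.89 and 6.13, so these values are low, and their share of background was not tested. The difference was 0.12 (SE 0.18, -0.26 to 0.50). Tbx21 was at 7.10, 7.40 and 7.49 in SEZ cKO samples and at 7.72, 6.72, 7.49, 7.29 and 7.29 in SEZ controls, where replicates 1 and 2 were the highest and lowest of all 8. The difference was 0.03 (SE 0.20, -0.39 to 0.44). Lhx1 was at 6.99, 6.84 and 6.96 in SEZ cKO samples and at 6.91, 6.81, 6.74, 6.65 and 6.89 in SEZ controls. The highest 2 of the 8 values were in cKO samples, and the unadjusted p of 0.168 (limma) was the smallest of the 6 members. The difference was 0.13 (SE 0.09, -0.06 to 0.32).

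Cdhr1 fell into 2 sets of SEZ samples that crossed the genotypes. It was at 9.58, 9.76 and 7.79 in SEZ cKO samples and at 9.56, 7.46, 9.43, 7.99 and 9.52 in SEZ controls. Thus 3 samples (cKO replicate 3 and control replicates 2 and 4) lay between 7.46 and 7.99, and the other 5 between 9.43 and 9.76. These 3 are the samples in which Slc1a3 (cKO replicate 3) or Slc17a7 (controls 2 and 4) stood apart, and whether the same source underlies both was not tested. The cKO difference was 0.25 (SE 0.46, -0.73 to 1.23), -0.46 without SEZ controls 2 and 4, and 0.88 without cKO replicate 3.

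Slc17a6 was at 6.32, 6.27 and 6.15 in SEZ cKO samples and at 6.09, 6.30, 6.01, 6.40 and 6.11 in SEZ controls. The groups overlapped, and controls 2 and 4, high in Slc17a7, were also the highest controls for this second vesicular glutamate transporter. But its SEZ values, 6.01 to 6.40, lay near the lower quartiles of the arrays (5.89 to 6.13). Whether this order of the controls is more than background was not tested. The difference was 0.06 (SE 0.15, -0.25 to 0.38), and 0.175 without SEZ controls 2 and 4. Reln was at 10.83, 11.18 and 10.78 in SEZ cKO samples and at 10.45, 10.83, 10.75, 11.24 and 10.99 in SEZ controls. The cKO samples lay inside the control range. The difference was 0.08 (SE 0.21, -0.37 to 0.53), and 0.20 without SEZ controls 2 and 4. The test of whether the cKO effect differed between OB and SEZ called 0 of 6 members, against 0.00502% of all genes, and the smallest unadjusted p among the members was 0.637 (limma).

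**Figure D2:**
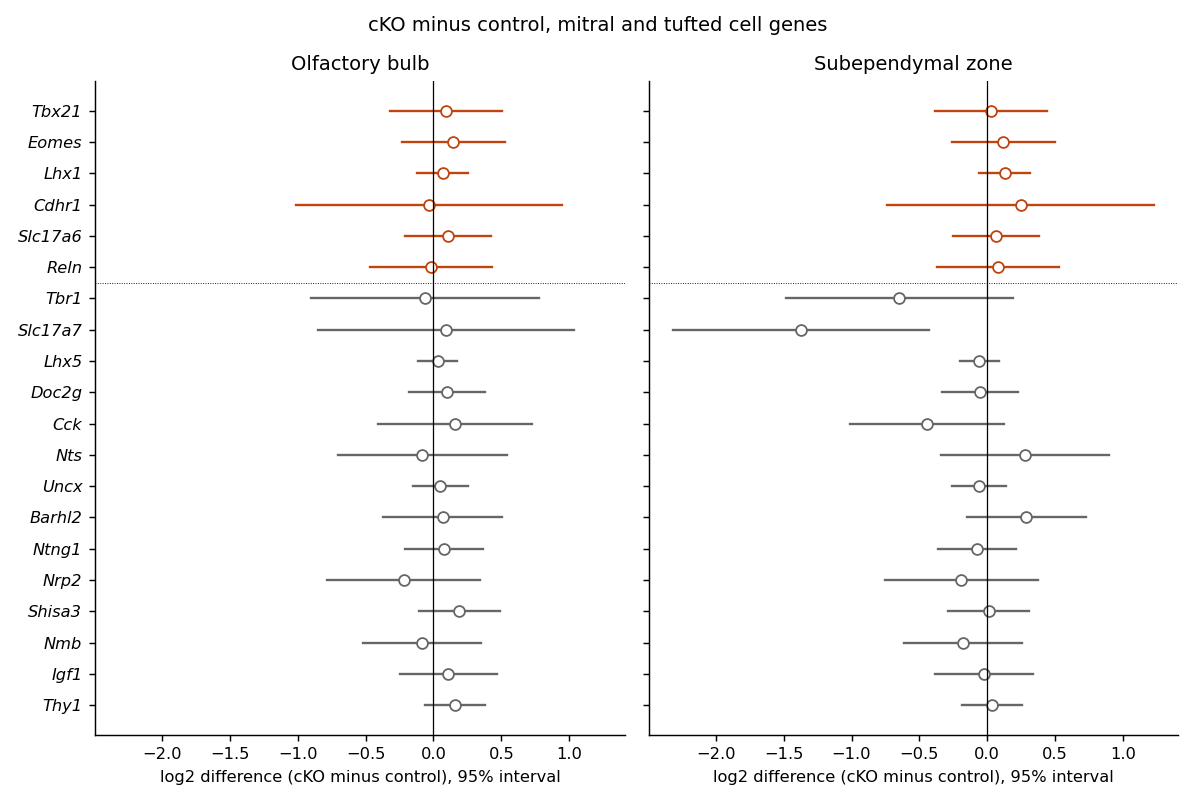
Log2 difference, cKO minus control, with its 95% interval for the 6 members (top, orange) and 14 other genes of mitral and tufted cells (below, grey) in OB (left) and SEZ (right). Open circles mark genes that did not pass the test, which holds for all 20 in both tissues, and most intervals hold 0, with Slc17a7 in SEZ (-1.37) as the exception.

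A further list of 18 genes described in mitral or tufted cells was read beside the members, and 14 of them had a probe set with a single symbol. In OB cKO against OB control 0 of the 14 passed limma's test and 0 had an unadjusted p under 0.05, with a median difference of 0.07 and values from -0.22 for Nrp2, a semaphorin receptor, to 0.19 for Shisa3. In SEZ also 0 of 14 passed (median -0.06), and 1, Slc17a7, had an unadjusted p under 0.05 by limma. Slc17a7 (VGLUT1), which mitral cells share with cortical neurons, differed by -1.37 (SE 0.45, adjusted p = 1.00 by limma, unadjusted p = 0.00696). It was at 8.04, 8.68 and 7.84 in SEZ cKO samples and at 8.74, 10.58, 8.44, 11.06 and 8.98 in SEZ controls. The highest 2 values were those of controls 2 and 4, and without them the difference was -0.54 (SE 0.18). Tbr1, a T-box factor of mitral and cortical projection neurons, was at 6.77, 6.77 and 6.60 in SEZ cKO samples and at 6.63, 8.17, 6.47, 8.63 and 6.91 in SEZ controls, with the same 2 samples on top, and without them its difference was 0.04.

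Between the tissues the members parted clearly. In control mice 5 of the 6 were higher in OB than in SEZ, against 12.6% of all genes called higher in OB, 14.9% called lower and 27.5% called in either direction. In cKO mice 4 of 6 were higher, against 10% called higher, 13.1% called lower and 23.1% called either way. The members' median difference, OB minus SEZ, was 2.14 in cKO and 2.09 in control samples, where that of all genes was -0.016 and 0.003. The cKO and control comparisons share no sample, but the fit of all arrays gives them the same spread per gene, so their tests are not independent.

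Eomes showed the widest gap among the members, 4.22 (SE 0.20, 18.7-fold, adjusted p = 8.82e-11 by limma) in cKO and 4.19 (SE 0.16, 18.3-fold, adjusted p = 1.83e-12) in control samples. Its lowest OB value was 10.15 and its highest SEZ value 6.75. The SEZ values of Eomes ran down to 5.84, where the lower quartiles of the arrays lay between 5.89 and 6.13. How much of them is background was not tested, and the fold depends on it. Tbx21 differed by 2.34 (SE 0.22, 5.05-fold, adjusted p = 3.31e-07 by limma) in cKO and by 2.27 (SE 0.17, 4.83-fold, adjusted p = 1.23e-08) in control samples. The lowest OB value was 9.14 and the highest SEZ value 7.72. Slc17a6 differed by 1.94 (SE 0.17, 3.84-fold, adjusted p = 1.20e-07 by limma) in cKO and by 1.90 (SE 0.13, 3.73-fold, adjusted p = 3.86e-09) in control samples. Again the lowest OB value, 7.73, was above the highest SEZ value, 6.40. The limit on the fold given for Eomes holds for Slc17a6 too.

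Cdhr1 differed by 2.72 (SE 0.52, 6.61-fold, adjusted p = 0.000799 by limma) in cKO and by 3.01 (SE 0.40, 8.03-fold, adjusted p = 1.60e-05) in control samples. Since 3 SEZ samples were low, the size of the gap depended on them: without SEZ controls 2 and 4 it was 2.30 (adjusted p = 5.01e-05 by limma) in control samples, and without SEZ cKO replicate 3 it was 2.10 (adjusted p = 0.00466) in cKO samples. Even the highest SEZ value, 9.76, was below the lowest OB value, 11.47.

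Reln differed less. It was higher in OB by 0.61 (SE 0.24, 1.53-fold, adjusted p = 0.0768 by limma, not called) in cKO and by 0.71 (SE 0.18, 1.63-fold, adjusted p = 0.00719, called) in control samples. The cKO values did not overlap between the tissues (11.31 to 11.89 in OB, 10.78 to 11.18 in SEZ), while the control values did, since OB control replicate 3 at 11.00 was below SEZ control replicate 4 at 11.24. A fit of the cKO arrays alone called Reln (adjusted p = 0.0350 by limma), so the call in cKO depends on the arrays that set the spread. Lhx1 did not differ detectably, at -0.04 (SE 0.10, -0.25 to 0.17, adjusted p = 0.846 by limma) in cKO and 0.02 (SE 0.08, -0.14 to 0.18, adjusted p = 0.894) in control samples. Its mean over all arrays, 6.85, was below the median gene's 8.11, and its 16 values spanned 6.65 to 7.06. Slc17a6 was the other member with a mean below the median gene, at 7.16. No call of presence comes with these values, so whether the Lhx1 probe set responds to the transcript here was not tested.

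**Figure D3:**
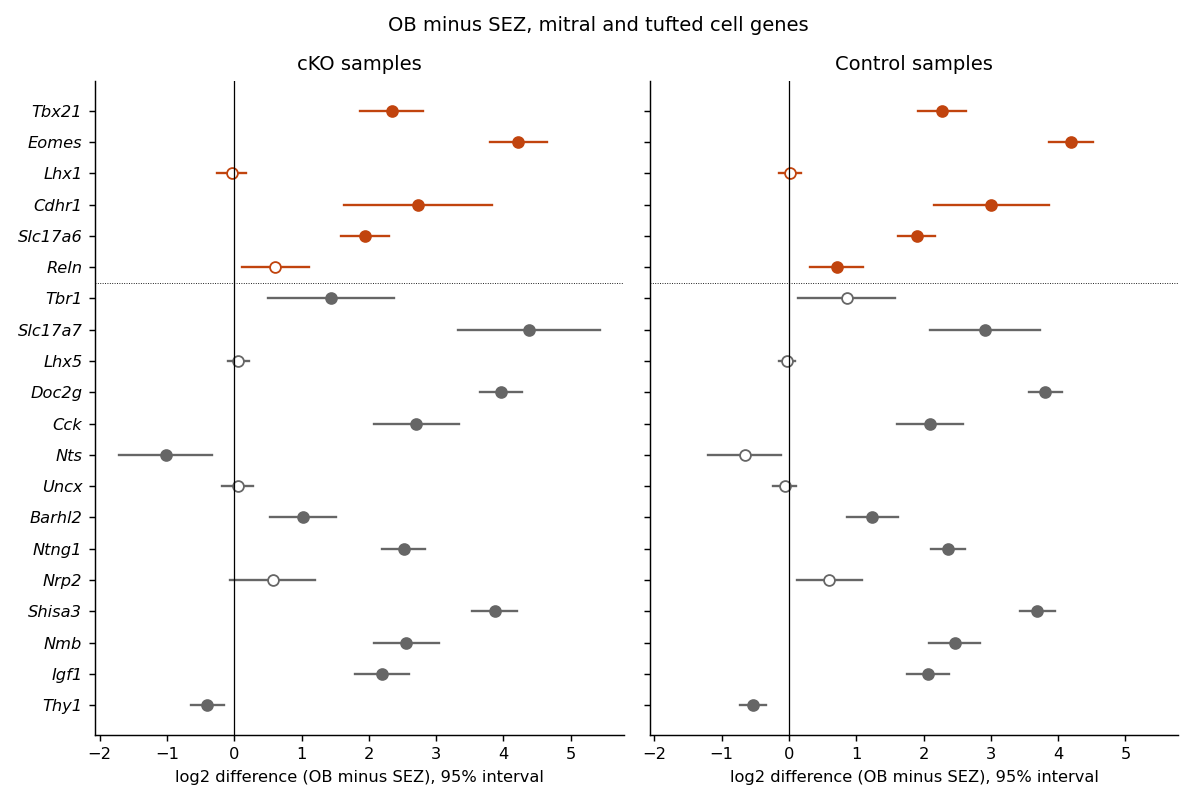
Log2 difference, OB minus SEZ, with its 95% interval in cKO (left) and control samples (right) for the 6 members (top, orange) and 14 other mitral and tufted cell genes (below, grey). Filled circles passed the test. Eomes lies near 4.2 in both panels, Lhx1 lies at 0, and Reln is filled in control samples alone.

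The order of the 4 groups was thus the same for Tbx21, Eomes, Cdhr1 and Slc17a6: both OB groups stood above both SEZ groups, and the neighbours within a tissue did not differ beyond their spread. For Reln the group means were 11.54 ± 0.31 in OB cKO, 11.56 ± 0.41 in OB control, 10.93 ± 0.22 in SEZ cKO and 10.85 ± 0.29 in SEZ control samples (SD, n = 3 and 5). The highest SEZ control sample (11.24) was above 1 OB control sample (11.00) and below the other 4. For Lhx1 the means, 6.89 ± 0.09, 6.82 ± 0.15, 6.93 ± 0.08 and 6.80 ± 0.11 in the same order of groups, had no order beyond their spread.

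The other mitral and tufted cell genes showed the same contrast of tissues in most but not all cases. In cKO samples 9 of the 14 were higher in OB, 2 were lower and 3 were not called (median 1.82). In control samples 8 were higher, 1 was lower and 5 were not called (median 1.65). Of all genes, 10% in cKO and 12.6% in control samples were called higher, and 13.1% and 14.9% lower. Doc2g, a C2-domain gene known from tufted and mitral cells, differed by 3.97 in cKO (adjusted p = 4.99e-12 by limma) and by 3.81 (14.0-fold, adjusted p = 1.45e-13) in control samples. Shisa3 differed by 3.87 in cKO and 3.69 in control samples. Ntng1, a membrane-anchored netrin relative, differed by 2.52 in cKO and 2.37 in control samples. Of the neuropeptide genes, Nmb differed by 2.56 in cKO and 2.46 in control samples, and Cck by 2.70 in cKO and 2.10 in control samples. Igf1, an insulin-like growth factor, differed by 2.20 in cKO and 2.07 in control samples. Thy1, a surface protein of many projection neurons, was lower in OB, at -0.40 in cKO and -0.53 in control samples, and the peptide gene Nts was lower in cKO samples (-1.02), both named after their values were seen.

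Genes that work with the members were counted too. Reelin binds receptors of the LDL receptor family and acts through the adaptor Dab1. Of 11 genes of that pathway, 3 were higher and 1 was lower in OB than in SEZ, in cKO and in control samples alike, against 23.1% of all genes called in cKO and 27.5% in control samples. A count of 4 in so short a list is near that rate. Lrp8 (ApoER2), one of the receptors, was higher by 1.82 in cKO and 1.71 in control samples, the kinase gene Fyn by 0.85 and 0.91, and Dab1 by 0.54 and 0.53. Vldlr, the other classical receptor, was lower, at -0.98 in cKO and -0.79 in control samples (adjusted p = 7.19e-08 and 2.58e-08 by limma). The receptor pair thus differed in opposite directions between the tissues in both genotypes. Between cKO and control 0 of these 11 genes passed in either tissue by limma, and 0 had an unadjusted p under 0.05.

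Slc17a6 has relatives that load other transmitters or other glutamate vesicles. Of 7 vesicular transporter genes besides it, 2 were higher in OB and 2 were lower in both genotypes. Over all genes 10% were called higher and 13.1% lower in cKO samples, and 12.6% and 14.9% in control samples. Slc17a7 was higher by 4.38 in cKO and 2.91 in control samples, and Slc18a2, the monoamine carrier, by 0.51 and 0.40. Slc17a8 (VGLUT3) was lower, at -1.19 in cKO and -0.91 in control samples, as was Slc18a3, the acetylcholine carrier, at -1.52 and -1.53. Between cKO and control 0 of the 7 passed in either tissue by limma, and Slc17a7 in SEZ was the 1 with an unadjusted p under 0.05. Without SEZ controls 2 and 4 the Slc17a7 gap in control samples was 3.75.

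Of 24 measured T-box, LIM-homeobox and cofactor relatives of Tbx21, Eomes and Lhx1, 1 was higher and 4 were lower in OB in cKO samples, and 0 were higher and 4 lower in control samples. Over all genes 23.1% were called in cKO and 27.5% in control samples, so the relatives were called no more often than genes at large. The 4 lower ones were the same in both genotypes. Isl1, a LIM-homeodomain factor of striatal and cholinergic neurons, was lower, at -2.27 in cKO and -2.32 in control samples, as was the LIM cofactor gene Ldb2, at -2.12 and -1.95. Lhx8 and Lhx6, factors of ventral forebrain neurons, were lower too, Lhx8 at -0.95 in cKO and -0.99 in control samples and Lhx6 at -0.97 and -1.07. Tbr1 was the 1 gene higher in cKO samples (1.44, adjusted p = 0.0249 by limma), and in control samples it was at 0.86 (adjusted p = 0.0760), or 1.55 without SEZ controls 2 and 4 (adjusted p = 3.01e-05). Tbx21 and Eomes also act in T and natural killer cells. The mean of 10 marker genes of those cells ran from 6.18 to 6.30 in OB cKO, from 6.11 to 6.34 in OB control, from 6.18 to 6.36 in SEZ cKO and from 6.13 to 6.37 in SEZ control samples. Of the 10, 0 were higher in OB and 1 (Il2rb) was lower, in both genotypes.

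Within the OB samples the members did not vary as 1 block. The main axis of variation within groups, the first principal component over all genes after group means were removed, held 41.0% of the within-group variance and placed 4 OB samples on one side (cKO replicate 2 and control replicates 2, 4 and 5) and 4 on the other. Since the sides were read from these same data, genes can part between them by construction, and no test was made between them. The share of all genes that parted in this way was not counted. Reln was at 11.57 to 12.07 on the first side and 11.00 to 11.42 on the second, with no overlap. Ntng1 (11.16 to 11.31 against 10.67 to 11.07) and Nmb (10.00 to 10.45 against 9.43 to 9.79) were placed the same way. Slc17a7 (12.32 to 12.51 against 12.54 to 12.64) and Thy1 (11.46 to 11.67 against 11.75 to 11.85) also showed no overlap, in the opposite direction, and the other 15 of the 20 member and listed genes overlapped. Tbx21 had 9.64 to 9.90 against 9.14 to 9.74. In SEZ, among the members Reln again separated the sides (10.83 to 11.24 in 5 samples, 10.45 to 10.78 in 3), while Tbx21 did so in the other direction (6.72 to 7.40 against 7.49 to 7.72). Within the sides, the cKO minus control difference of Reln in OB was 0.08 on the first (1 cKO and 3 control samples) and 0.18 on the second (2 of each), that of Tbx21 was 0.15 and 0.23, and that of Eomes 0.12 and 0.04. The other members changed sign between the sides: Cdhr1 was at 0.22 and -0.17, Slc17a6 at 0.25 and -0.09, and Lhx1 at 0.22 and -0.06. With a single cKO sample on the first side, these are values without a test.

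Eomes and Slc17a6 followed another pattern. Both were lowest in OB control replicates 4 and 5 (Eomes 10.31 and 10.15, Slc17a6 7.74 and 7.73) although these 2 samples were among the 4 highest OB samples for Reln (11.80 and 11.57). Cck, which marks tufted cells, was also lowest there, at 10.73 and 10.64, against 10.92 to 11.50 in the other 6 OB samples. Omp, the marker protein gene of olfactory sensory neurons, whose axons end in the outer glomerular layer, was at 9.95, 8.54 and 9.42 in OB cKO samples and at 10.38, 10.73, 9.82, 8.86 and 7.36 in OB controls. It too was low in control replicates 4 and 5 and in cKO replicate 2. The part of sensory axons or of outer layers in these levels was not tested.

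**Figure D4:**
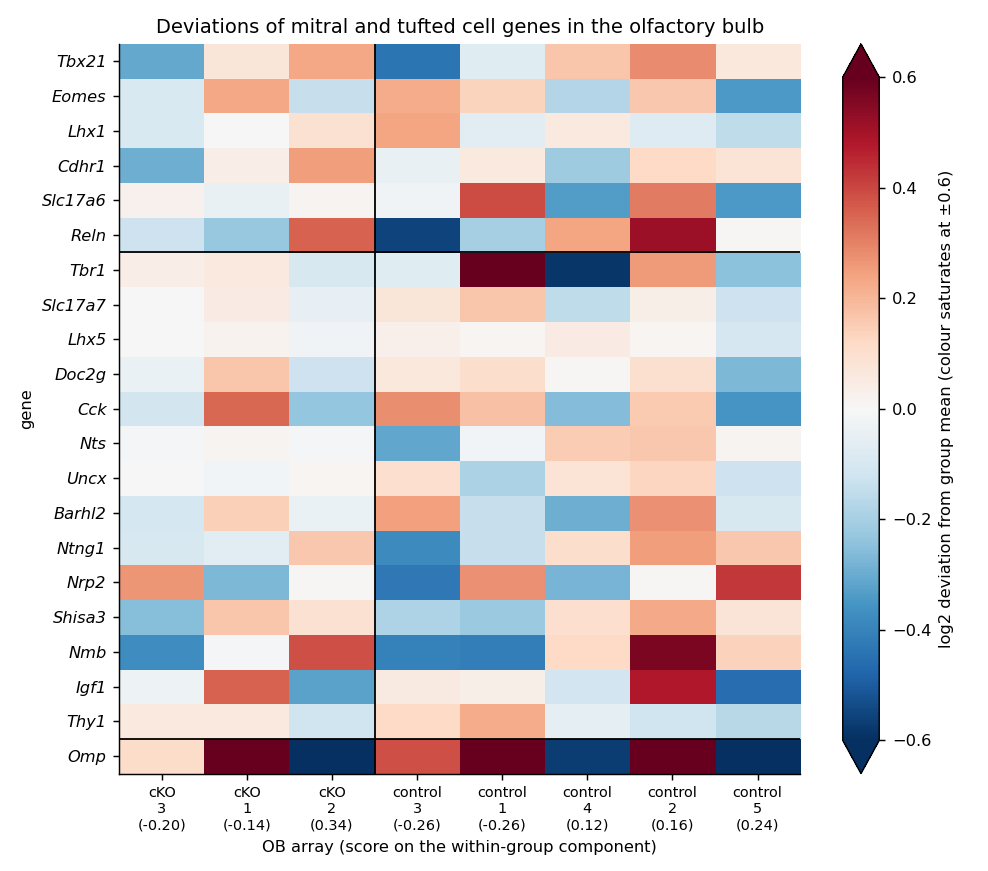
Deviation of each gene from its group mean (log2, red higher, blue lower, colour saturating at 0.6) in the 3 OB cKO (left) and 5 OB control samples (right), ordered within each group by score on the within-group component, for the 6 members, 14 other mitral and tufted cell genes and Omp. Reln, Ntng1 and Nmb are bluer at negative and redder at positive scores, while Eomes, Slc17a6, Cck and Omp are lowest in control replicate 5.

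The pair Eomes and Cck and the pair Tbx21 and Ntng1, chosen after their values were seen, show both patterns. Eomes and Cck had the same order over all 8 OB samples except for control replicates 1 and 2, which changed places (10.62 and 10.65 for Eomes, 11.17 and 11.15 for Cck). Tbx21 and Ntng1 shared their lowest sample, OB control replicate 3 (9.14 and 10.67), and their top 2, cKO replicate 2 (9.90 and 11.30) and control replicate 2 (9.86 and 11.31). As the samples fall into sets, no correlation between members within OB is given.

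**Figure D5:**
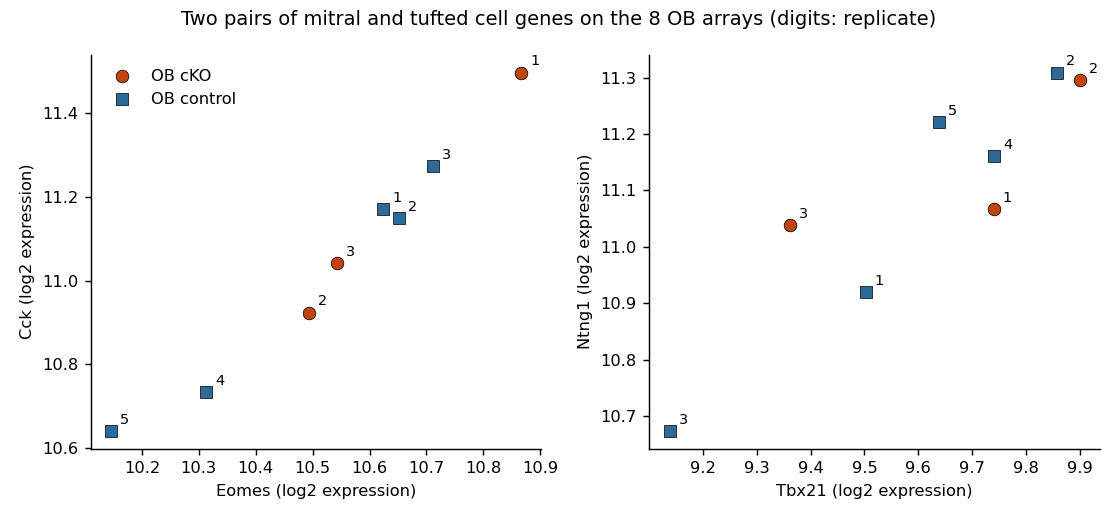
Log2 expression of Cck against Eomes (left) and of Ntng1 against Tbx21 (right) on the 8 OB arrays, with OB cKO as circles and OB control as squares, and the replicate number beside each point. Both pairs rise together. The cKO points lie among the control points, except that cKO replicate 1 is the highest of the 8 for Eomes and Cck and cKO replicate 2 the highest for Tbx21.

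Genes whose pattern over the 16 samples was most like the members were ranked by Pearson's r, given here as a description, since all points share the 4 groups and most of the likeness is the difference between tissues. With the mean profile of the 6 members, Ppp1r17 had the highest r at 0.977, followed by Trdn (0.976), Rab37 (0.975), Cbln1 (0.974) and Map3k1 (0.974). Eomes was most like Kcnab3 (0.995), Calb2 (0.995) and Lgr5 (0.994), and Tbx21 most like Mef2c (0.990), Scube1 (0.986) and Npr1 (0.986). Slc17a6 was most like Slc6a7 (0.983), Fgfr1 (0.981) and its fellow member Eomes (0.981). Cdhr1 was most like Cyb561d1 (0.954), Ppp1r17 (0.950) and Chrna10 (0.944), and Reln most like Mgat5 (0.947), Unc80 (0.938) and Fat4 (0.934). For Lhx1, whose values hardly vary, the highest was 0.757 (Glyatl3). With group means removed, over the 8 OB samples, the mean member profile was most like Foxo1 (0.967), Nlgn2 (0.964) and Slc6a17 (0.955). These are the top of a ranking of all genes over 8 samples, which can reach a high r without a shared cause. The members did not vary as 1 block there, so their mean is no shared pattern.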

How the data were processed

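The deposited values are log2 expression per probe set, which the authors computed by RMA in Affymetrix Expression Console 1.2, per the submitters' processing notes. RMA corrects background, makes the distributions of all arrays alike by quantiles and summarises the probes of a set. The values start after normalisation, so a shift shared by all probes of an array is no longer visible. The platform annotation gives 21789 of 35556 probe sets a single gene symbol, and 1621 several and 12146 none, which were left out. A RefSeq table of GRCm38.p6 held the genes of 21698 of these single-symbol probe sets, with 0 symbols changed. Where a gene had several probe sets (999 genes) the brightest was used. No source used here names the genome build of the probe sets. No 2 arrays were identical (highest correlation 0.9975).

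A single model of the 4 groups without further terms was fitted to all 16 arrays (lmFit and eBayes of limma 3.58.1, R 4.3.3), with 12 residual and 4.34 prior degrees of freedom. The tests were two-sided and the procedure was tested on simulated data. The number of arrays limits the precision. P-values measure the spread between these samples, which may in part be technical. The members, the gene lists and the alternatives were chosen with earlier results of these data known. All 6 members are named, with up to 6 genes per list by lowest adjusted p, the genes most like the members by Pearson's r (5 for the mean profile, 3 per member), and Slc1a3 and Smarca4 as checks. Alternatives were other normalisations, filters, weights, blocks and subsets of samples.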

Additional observations from a re-analysis of the deposited data

Results flagged for a closer look

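No result met a criterion for a closer look. Dixon's test for a single far sample, with a critical value of 0.71 for 5 samples, was applied to the 6 members in the control groups of both tissues. It marked 0 of 12, where chance alone would mark about 0.6. Made for a single far sample, it can miss a pair on the same side, such as Cdhr1 in SEZ control replicates 2 and 4 (7.46 and 7.99). The cKO groups, of 3 samples each, were not tested.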

How the results depend on the processing

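The number of members called was 0 under every alternative run in OB and in SEZ between cKO and control, and for the difference between the cKO effects. It was 3 to 5 for OB minus SEZ in cKO samples and 4 to 5 in control samples, with 3 and 4 when genes below the median level, Slc17a6 among them, were left out. For OB minus SEZ in cKO samples, Reln (adjusted p = 0.0768 by limma) passed with the 2 groups alone (0.0350), with cyclic loess (0.65, 0.0463) and with a threshold of 0.1. It also passed with a covariate for the within-group component (0.00632), which was added after seeing the data. The component was computed from the within-group deviations of these same values. Fitting it lowers the spread of genes that follow it, such as Reln, by construction, so calls it adds here and below are no support.

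Members' cKO minus control differences lay near 0, and several changed sign without any call. In OB, Cdhr1 was at 0.025 with cyclic loess and 0.11 without cKO replicate 3 of both tissues. Reln was at 0.040 with cyclic loess, 0.044 without cKO replicate 3 and 0.097 without cKO replicate 1 of both tissues. In SEZ, without controls 2 and 4, Tbx21 was at -0.17 and Cdhr1 at -0.46. Without cKO replicate 3 of both tissues Tbx21 was at -0.055, and without cKO replicate 1 Eomes was at -0.050 and Cdhr1 at -0.021. Reln was at -0.010 with array weights. Lhx1 for OB minus SEZ was at 0.019 in cKO samples without replicate 3 of both tissues and at -0.026 in control samples without SEZ controls 2 and 4. Leaving out single replicates gave ranges in OB of -0.024 to 0.24 for Tbx21, -0.16 to 0.11 for Cdhr1 and -0.19 to 0.11 for Reln. In SEZ they were -0.12 to 0.14 for Tbx21, -0.050 to 0.40 for Eomes, -0.11 to 0.88 for Cdhr1 and -0.047 to 0.18 for Reln. For Lhx1, OB minus SEZ, they were -0.085 to 0.006 in cKO and -0.038 to 0.060 in control samples. The cause of these changes was not tested beyond the removal of samples.

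Replicate numbers are shared by the tissues, and whether they mark a pairing is not settled: deviations of equally numbered OB and SEZ samples correlated at 0.43 to 0.66 in 7 of 8 pairs and at -0.19 for cKO replicate 1, and 5 of 8 matched their own number best. The OB and SEZ samples of control replicate 5 (0.55) carry different genotypes in the labels, while Slc1a3 was low in both tissues of cKO replicate 3. As a fixed term the block was the number alone, so cKO and control samples of equal number shared a term although their genotypes differ. With it Reln passed for OB minus SEZ in cKO samples (adjusted p = 0.00377 by limma). With a random term of genotype and number Reln passed likewise (0.0353). Differences between cKO and control with the fixed block thus depend on that numbering. In OB, Reln was at 0.11 with the fixed block, and in SEZ Eomes was at -0.013 and Slc17a6 at -0.026. The block changed no other call among the members. Calls over all genes in OB between cKO and control were 9, and 5 with the fixed block, 5 with cyclic loess, 3 with OB alone, 2 without cKO replicate 3, 5 without cKO replicate 1 of both tissues and 28 with the component. In SEZ they were 0, 2 with the fixed block and 4 with the component. For OB minus SEZ in cKO samples they were 4614, and 2996 without cKO replicate 1 of both tissues, where calls among the 14 other mitral and tufted genes were 7 in place of 11. For the difference of effects they were 1, and 0 to 2. Above the median level, 1 of 4 vesicular transporter calls was left, with 2 of 5 (cKO) and 2 of 4 (control) for the T-box and LIM relatives, which in control samples had 7 with array weights, a threshold of 0.1 or the component.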

Other observations

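Other cell types of the bulb gave the setting in which the members were measured. Of 11 granule and periglomerular genes, 7 were higher in OB than in SEZ and 2 lower in each genotype, where 10% and 12.6% of all genes were called higher in cKO and control samples: Calb2 (calretinin) by 4.59 in cKO and 4.34 in control samples, Scgn (secretagogin) by 4.57 and 4.42, and Th, of dopaminergic neurons, by 3.37 and 3.14, with Calb1 lower, at -4.06 and -3.76. Calb2 was also among the 3 genes most like Eomes. Of 4 genes that Cajal-Retzius cells, another source of reelin, express, Ndnf was higher in OB by 3.04 in cKO and 3.01 in control samples, and Trp73, their defining factor, was not called (-0.22 and -0.24). Of 4 genes of glutamatergic progenitors, Neurod1 was higher in OB by 1.89 and 2.06 and Insm1 lower, at -0.68 and -0.76. The 7 genes of olfactory sensory neurons were mixed, with Omp higher by 1.91 and 2.09 and Ano2 lower, at -2.79 and -2.57. The cKO minus control test called 0 genes of these 4 lists in either tissue by limma, and Calb1 and Ano2 in OB and Gad1 and Insm1 in SEZ had an unadjusted p under 0.05.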
